A study of Rattus norvegicus with 10 samples.

Results

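Aif1, Cyba, Apoe, Cd53, Coro1a and Cd68 are genes of macrophages and other leukocytes, and their messenger RNA was followed across 10 rat lacrimal glands. The genes were taken by symbol from the array's platform annotation, which gave 8 probe sets for 5 of the 6 genes, out of 4736 genes with a symbol and 8740 probe sets that are not array controls. No probe set carried the symbol Cd68, so Cd68 was not analysed here. Several of the genes were picked because they were higher in denervated than in control glands. That comparison is therefore given as a description with no test.

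The 5 denervated glands were collected 7 days after the greater superficial petrosal nerve, which carries the parasympathetic supply of the gland, had been cut. The 5 control glands were 3 contralateral glands, numbered 1 to 3, from rats with a cut nerve at the same time, 1 gland of an unoperated rat and 1 gland taken 7 days after a sham operation. All were rat glands, and the labels name no strain, sex or age. They do not say that numbered glands came from separate animals, so the spread between glands may be partly technical. By title 3 control glands are contralateral, but by description they lie on the operated side. Grouping went by title.

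Macrophages live in the connective tissue between the secretory units of exocrine glands. They take up dying cells and debris, digest them in lysosomes and release lipoproteins that carry the lipid away. Phagocytes also make superoxide with a membrane-bound NADPH oxidase, and they move and engulf by remodelling actin. Each array measured RNA of a whole gland, so a different number of leukocytes and a different amount of RNA per leukocyte cannot be told apart.

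Values are linear probe set intensities, scaled by the authors so that the arrays' trimmed means ran from 2505 to 2507. For log2 values, intensities under 156.2 were set to that floor. Below the floor no ranking is possible. A difference is a minimum where only the lower group holds floored values. Where the higher group holds some too, the difference can be too large or too small. Intensities of different probe sets are not compared with each other. Correlations of log2 intensity between arrays ran from 0.715 to 0.912. The arrays of denervated 1, contralateral 1 and sham stood apart: they correlated with each other at 0.851 to 0.898 and with the other 7 at 0.715 to 0.821. Results are therefore also given within these 3 arrays and within the other 7. The other 7 were not uniform: denervated 5 correlated at 0.847 with denervated 2 and at 0.752 to 0.804 with the rest of them. Markers of the gland's secretory cells, of which 4 are given after their values were seen, were uneven between glands. Dnase1, a secreted nuclease, had 329145.8 in denervated 1, 621186.2 in contralateral 1 and 721536.6 in the sham gland, against 761.5 to 15270.7 in the other 7. The secretoglobin Scgb2a1 was under the floor in denervated 1, 2 and 5, contralateral 1 and the sham gland, and between 74351.5 and 360032.9 in the other 5. Pip, a secreted protein, was bright in all 10 glands, at 104315.3 or more, as was the water channel Aqp5, at 6258.3 or more. The part of these secretory differences in the results was not tested.

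A pair of promoters are shown because both hold a match to the PU box GAGGAA, the core letters bound by PU.1, a transcription factor that macrophages need. RefSeq promoters, 250 bases before to 50 after a gene start on GRCr8, were found for 4 of the 5 measured genes, with 6 starts in all. Both strands were searched. Capitals mark the match, which reads TTCCTC on the gene's strand in each case.
Cd53, chr2:197087847-197088146, minus strand: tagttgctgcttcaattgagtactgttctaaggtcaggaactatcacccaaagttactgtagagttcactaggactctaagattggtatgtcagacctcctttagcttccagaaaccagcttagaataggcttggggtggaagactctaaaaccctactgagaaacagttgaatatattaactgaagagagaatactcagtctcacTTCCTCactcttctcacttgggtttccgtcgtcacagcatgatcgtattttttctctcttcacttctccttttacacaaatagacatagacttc
Apoe, chr1:88484650-88484949, minus strand: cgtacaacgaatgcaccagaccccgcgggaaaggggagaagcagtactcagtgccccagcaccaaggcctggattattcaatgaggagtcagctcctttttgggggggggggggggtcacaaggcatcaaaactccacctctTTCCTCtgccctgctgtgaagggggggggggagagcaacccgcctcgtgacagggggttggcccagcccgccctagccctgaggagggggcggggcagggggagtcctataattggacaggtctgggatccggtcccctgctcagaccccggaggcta
Counted from the gene start, the match lay at -44 to -39 in Cd53 and at -108 to -103 in Apoe. It overlapped no other motif searched. The other Apoe starts and the Cyba and Coro1a promoters held no match. Of all 33469 promoters of this length, 27.6% held a PU box. The AP-1 letters TGANTCA, found in 7.33% of all promoters, and the C/EBP letters TTGCNNAA, found in 10.6%, were in none of the 6.

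In denervated glands, 7 of the 8 probe sets had the higher mean log2 intensity, where 44.6% of the 6118 probe sets tested did. In 2 of the 8, both of Aif1, all 5 denervated glands lay above all 5 control glands, and 0.637% of the probe sets tested did so. In 7 of the 8, denervated 2, 3, 4 and 5 all lay above every control gland, against 3.79% of the probe sets tested. The choice of genes used these values, so nothing is read from the counts.

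**Figure D1:**
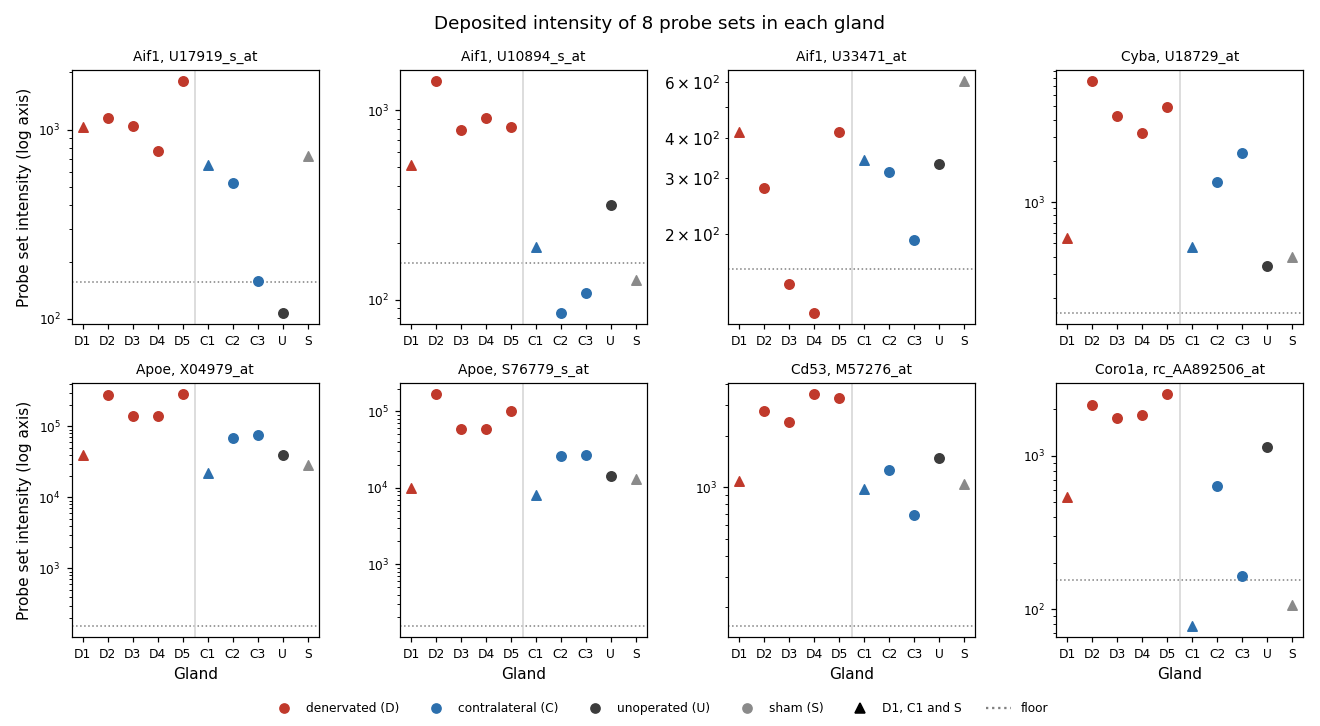
Deposited intensity (log axis) of the 8 probe sets in each gland, with 1 point per gland, denervated glands left of the control glands and triangles for denervated 1, contralateral 1 and sham. The dotted line is the floor of 156.2; denervated 2 to 5 lie above every control gland in all panels except Aif1 U33471_at, and denervated 1 does so in the other Aif1 panels only.

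Aif1 encodes a calcium-binding protein that bundles actin in macrophages, and is widely used as their marker under the name Iba1. It had 3 probe sets. At U10894_s_at the denervated glands 1 to 5 had intensities of 516.2, 1423.4, 791.6, 907.5 and 820.3, against 190.2, 85.4 and 109 in the contralateral glands 1 to 3, 316.4 in the unoperated gland and 127.8 in the sham gland. Every denervated gland was above every control gland, and 3 control glands were under the floor. The mean log2 intensity was 9.72 ± 0.52 in denervated and 7.55 ± 0.44 in control glands (SD, n = 5 each), a difference of 2.18 ± 0.48 (SE from limma).

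At U17919_s_at, the brightest of the Aif1 probe sets, the denervated glands 1 to 5 had 1035.2, 1144.7, 1044.3, 774.1 and 1798.2, against 652.2, 518.7 and 157.6 in the contralateral glands, 107.8 in the unoperated gland and 722 in the sham gland. The groups again did not overlap, but denervated 4 lay close to the sham and contralateral 1 glands. The log2 difference was 1.63 ± 0.55 (SE from limma), with control glands spread over 4.62-fold and denervated glands over 2.32-fold. The difference and the control spread are minima, since the unoperated gland was under the floor.

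The third Aif1 probe set, U33471_at, went the other way. Intensities were 416.7, 278.2, 139.4, 113.6 and 417.2 in denervated glands 1 to 5, against 341.7, 313.7 and 191.7 in contralateral glands, 330.6 in the unoperated gland and 602.4 in the sham gland. The groups overlapped, with means of 8.02 ± 0.71 in denervated and 8.38 ± 0.59 in control glands (log2, SD, n = 5 each). It was too dim to pass the filter and was not fitted. The 3 Aif1 probe sets thus disagree in direction, and the files do not say which part of the transcript each reads.

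Cyba encodes the small membrane subunit of the phagocyte NADPH oxidase, which stabilises its catalytic partner Cybb. Its intensities were 550.7, 7620.6, 4252.8, 3180.3 and 4967.2 in denervated glands 1 to 5, against 469.6, 1395.1 and 2280.2 in contralateral glands 1 to 3, 344.9 in the unoperated gland and 400.9 in the sham gland. Denervated 2 to 5 were all above contralateral 3, the highest control gland, while denervated 1 lay within the control range. The log2 means were 11.59 ± 1.46 in denervated and 9.51 ± 1.21 in control glands (SD, n = 5 each), a 4.24-fold difference. Cyba varied 13.8-fold among denervated glands and 6.61-fold among control glands.

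Apoe encodes a lipoprotein component that macrophages secrete with cholesterol. At X04979_at the denervated glands 1 to 5 had 39758.9, 274913.5, 139885.4, 140561.9 and 284835.7, against 22032.1, 68461.7 and 74875.7 in contralateral glands, 39618.3 in the unoperated gland and 28393.1 in the sham gland. Denervated 1 matched the unoperated gland, and the other denervated glands exceeded every control gland. The log2 difference was 1.78 ± 0.50 (SE from limma), a fold of 3.44.

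The second Apoe probe set, S76779_s_at, gave 10066.8, 168400.2, 59804.8, 58460 and 100032.7 in denervated glands 1 to 5, against 8119.2, 26176.2 and 26867.8 in contralateral glands, 14275.5 in the unoperated gland and 13092.4 in the sham gland. Here denervated 1 was below all control glands but contralateral 1, and the log2 difference was 1.82 ± 0.59 (SE from limma). The ratio of X04979_at to S76779_s_at was 3.95 in denervated 1 and 1.63 in denervated 2, the extremes over the 10 glands. In the other 8 glands it was 2.17 to 2.85.

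Cd53 encodes a tetraspanin of the leukocyte surface, a membrane protein that organises other receptors. Its intensities were 1092.7, 2765.2, 2405.4, 3480.9 and 3303 in denervated glands 1 to 5, against 974.9, 1259.7 and 691.2 in contralateral glands, 1479.8 in the unoperated gland and 1049.4 in the sham gland. Denervated 2 to 5 were close to each other, with a log2 SD of 0.24, and all exceeded the unoperated gland, the highest control. The log2 difference over all glands was 1.20 ± 0.38 (SE from limma), the smallest among the 7 probe sets that were higher.

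Coro1a encodes a coronin of blood-forming cells that binds actin and organises the leukocyte cortex. Its intensities were 541.9, 2138.2, 1747.6, 1850.5 and 2512.4 in denervated glands 1 to 5, against 78.4, 639.3 and 163.8 in contralateral glands, 1141.9 in the unoperated gland and 106.8 in the sham gland. Control glands spanned the floor to the unoperated gland, a range of 7.31-fold, whereas denervated 2 to 5 had a log2 SD of 0.23. The log2 difference was 2.33 ± 0.66 (SE from limma) and is a minimum, since contralateral 1 and the sham gland were under the floor.

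Among the 10 glands, denervated 5 was in the top 3 for 8 of the 8 probe sets and denervated 2 for 7. Denervated 1 was in the top 3 for 1 of the 8, the dim Aif1 probe set U33471_at. The sham gland was among the lowest 3 for 6 of the 8 probe sets, ties at the floor included, and contralateral 1 and contralateral 3 for 5 each. Denervated 2 and 5 also had the highest scores for red blood cell genes, where a score is the mean log2 difference of a list's genes from the control glands: 1.57 and 1.63, against -1.17 to 0.66 in control glands. Hbb, the beta globin gene, had 222087.3 and 253653.4 in these glands, against 17360.6 to 113964.8 in control glands. The part of blood RNA in the result was not tested. Without denervated 2 and 5, an alternative chosen after seeing the data, the 7 differences were 0.98 (Cd53) to 1.95 (Coro1a) on the log2 scale. The second Apoe probe set then differed by 1.03 and Cyba by 1.42.

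The members were next set side by side within the 3 arrays that stand apart and within the other 7, with no test. The choice of genes used these values, and the 8 probe sets are of 5 genes. Nothing is therefore read from the counts. Within the other 7, denervated 2 to 5 lay above contralateral 2, contralateral 3 and the unoperated gland for 7 of the 8 probe sets, where 6.42% of the probe sets tested did. The folds were 4.86 and 4.84 for Aif1 at U17919_s_at and U10894_s_at, 4.61 for Cyba, 4.14 for Coro1a, 3.37 and 4.06 for Apoe at X04979_at and S76779_s_at, and 2.72 for Cd53. Both Aif1 folds are minima, since the unoperated gland at U17919_s_at and contralateral 2 and 3 at U10894_s_at were under the floor. Within the 3 arrays, denervated 1 was above both contralateral 1 and the sham gland for 6 of the 8, against 30.1% of the probe sets tested. Its fold over their mean was at least 2.99 for Aif1 at U10894_s_at, with the sham gland under the floor, and 1.51 at U17919_s_at. It was 1.27 for Cyba, 1.08 for Cd53 and 1.59 and 0.976 for the Apoe probe sets in that order. For Coro1a it was at least 3.47, with both control glands under the floor. These 3 arrays are also the ones with bright Dnase1.

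**Figure D2:**
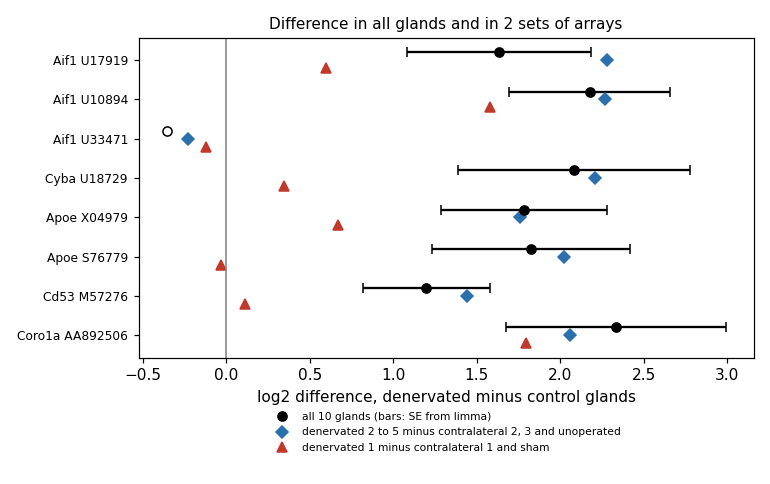
Log2 difference of denervated minus control glands for each probe set (horizontal axis), in all 10 glands with SE bars from limma, in denervated 2 to 5 against contralateral 2, 3 and unoperated, and in denervated 1 against contralateral 1 and sham. The open circle is a probe set that was not fitted; for denervated 1 the fold is at least 3.47 for Coro1a and 2.99 for Aif1 U10894_s_at, and is 1.51 for Aif1 U17919_s_at, 1.27 for Cyba and 1.08 for Cd53.

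Against contralateral glands alone, 7 of the 8 probe sets were higher in denervated glands. The comparison above used all of these glands, and so did the choice of genes. Nothing is therefore read from the counts, and the share of higher means over all probe sets was not taken. The differences were 2.34 and 1.57 for Aif1 at U10894_s_at and U17919_s_at, 2.63 for Coro1a, 1.67 and 1.57 for Apoe at S76779_s_at and X04979_at, 1.43 for Cyba and 1.36 for Cd53 on the log2 scale. All 5 denervated glands lay above all 3 contralateral glands for both of those Aif1 probe sets and for no other member, against 2.19% of the probe sets tested. The differences of Cyba and Apoe were smaller without contralateral 1, at 0.79 for Cyba and 1.10 and 1.01 for the same Apoe probe sets.

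Among control glands, whose contrast the choice of genes did not use, contralateral glands were tested against a class made of the unoperated gland and the sham gland. Of the 7 probe sets fitted, 0 passed by limma, and 0 had an unadjusted p under 0.05, where 4.89% of all probe sets tested had. Cyba showed the largest difference, with log2 means of 10.16 ± 1.17 (SD, n = 3) in contralateral glands and 8.54 (mean of n = 2) in the unoperated and sham glands, a difference of 1.62 ± 0.94 (SE; limma adjusted p = 0.967). Coro1a was lower in contralateral glands, by -0.73 ± 0.96 (SE; limma adjusted p = 0.981). The other 5 had differences between -0.41 and 0.53 with adjusted p of 0.981 to 0.991 by limma. The SEs of these differences were 0.56 to 0.96 on the log2 scale.

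The sham and unoperated glands, with 1 gland each and no replicate check, differed most for Coro1a and Aif1. Coro1a had 106.8 in the sham and 1141.9 in the unoperated gland. Aif1 at U17919_s_at was the reverse, with 722 in the sham and 107.8 in the unoperated gland, and at U10894_s_at it had 127.8 in the sham and 316.4 in the unoperated gland. Cyba, Apoe and Cd53 differed by less than 0.50 in log2 between the 2 glands.

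Other genes of macrophages and their pathways were read from lists, with the brightest probe set for each gene and the members left out. Some tested genes were in several lists: Cd37, Cd63 and Cd4. Over all 6118 probe sets, limma called 0 in denervated against control glands at an adjusted p under 0.05, while 5.02% had an unadjusted p under 0.05 in the upward direction and 4.66% in the downward direction. With 1 probe set per gene, 3621 genes in all, 44.4% were higher in denervated glands, 5.03% had an unadjusted p under 0.05 upwards and 5.11% downwards, and the median log2 difference was -0.08. No list gene passed over all probe sets. List medians rest on few genes and moved when single glands were left out, so their ranges over those refits are given.

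Of the macrophage and monocyte markers, 8 of 12 tested genes were higher in denervated glands, with a median log2 difference of 0.29 (0.19 without denervated 5 to 0.39 without denervated 1) and 1 at an unadjusted p under 0.05. That gene was Cebpb, a transcription factor of myeloid cells, with 1.01 ± 0.36 (SE; limma adjusted p = 0.448). The galactose-binding lectin Clec10a differed by 1.10 ± 0.65 and the Kupffer cell lectin Clec4f by -0.63 ± 0.67. At the floor were 1 control gland for Clec10a, and 2 denervated glands and 1 control gland for Clec4f. List scores were -0.07 to 0.62 in denervated and -0.28 to 0.21 in control glands, so they overlapped.

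Of 9 markers shared by all leukocytes 6 were higher, the median was 0.37 (0.19 without denervated 4 to 0.66 without denervated 1), and 1 was at an unadjusted p under 0.05. That was Cd48, a surface ligand of lymphocytes and myeloid cells, with 441.1, 2280.9, 1571.9, 1511.6 and 2695 in denervated glands 1 to 5, against 536.6, 474.8 and 870.3 in contralateral glands, 1096.4 in the unoperated gland and 264.6 in the sham gland. As for Cd53, denervated 2 to 5 were above all controls and denervated 1 was not. The tetraspanin Cd37 differed by 0.78 ± 0.49 and Cd52 by -0.64 ± 0.67. Of 9 other tetraspanins, the family of Cd53, 8 were higher and the median was 0.16 (0.066 without contralateral 1 to 0.29 without contralateral 3), from 1.60 ± 0.70 for Tspan8 to -0.08 ± 0.25 for Cd82, and 1, Tspan8, had an unadjusted p under 0.05 (limma adjusted p = 0.487).

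Defining leukocyte genes outside that pattern were Ptprc, the tyrosine phosphatase known as CD45, and Itgam, an integrin of macrophages and granulocytes, both named after their values were seen. Ptprc had 1917.5, 884, 379.9, 464.9 and 544.8 in denervated glands 1 to 5, against 1996.2, 762.3 and 143.9 in contralateral glands, 803.3 in the unoperated gland and 1957.6 in the sham gland. The 3 arrays that stand apart were the highest, whereas for Cyba and Apoe they were among the lowest 4 of the 10. Itgam differed by -0.61 ± 0.54 (SE; limma adjusted p = 0.728), with denervated 5 under the floor. The brightest Ptprc probe set differed by -0.24 ± 0.69, and of its other probe sets, both under the filter, 1 differed by 0.77 and 1 by -0.16.

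Of 17 genes of lysosomes and endosomes, the compartment of Cd68, 15 were higher, the median was 0.39 (0.26 without contralateral 1 to 0.50 without denervated 1), and 4 were at an unadjusted p under 0.05. The ganglioside activator Gm2a had 635.1, 15040, 2787.4, 4076 and 3479.5 in denervated glands 1 to 5, against 279.2, 1645.6 and 2371.7 in contralateral glands, 166.3 in the unoperated gland and 390.1 in the sham gland. Its difference was 2.48 ± 0.83, that of the collagen-degrading cathepsin Ctsk 1.17 ± 0.38, and that of a proton pump subunit, Atp6v0c, -0.26 ± 0.24 (SE; limma adjusted p = 0.437, 0.437 and 0.744). Denervated 1, with a list score of -0.36, equalled contralateral 1, the lowest control gland, and denervated 2 to 5 had 0.40 to 0.98, above the highest control score of 0.34. Without denervated 1, 1 gene of this list passed over all probe sets. It was the lysosomal lipase Lipa, with 1.45 ± 0.30 (SE, limma adjusted p = 0.0455). With contralateral 1 and sham left out as well, 0 list genes passed.

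For the partners of the other members the counts were smaller. Of 8 oxidase genes, Rac1 alone was tested, and it differed by 0.45 ± 0.39 (0.22 without denervated 4 to 0.77 without denervated 1). Its score was 0.52 to 1.39 in denervated 2 to 5, against at most 0.48 in control glands, and -0.83 in denervated 1. Of 13 lipoprotein genes 7 were higher, from the receptor Vldlr (0.91 ± 0.69) and Apoc1 (0.87 ± 0.67) to the sorting receptor Sort1 (-1.37 ± 0.78). Their median was 0.17 and turned to -0.13 without contralateral 3. For Vldlr, 1 denervated gland and 2 control glands were at the floor. Of 5 actin regulators and other coronins 4 were higher, and the median was 0.20, which turned to -0.11 without the sham gland and to -0.061 without the 3 arrays that stand apart. Capg, an actin-capping protein of macrophages, differed by 0.89 ± 0.42, Coro1b by 0.23 ± 0.23 with -0.19 at another probe set, and Coro7 by -0.38 ± 0.51. None of these genes had an unadjusted p under 0.05.

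T and natural killer cell genes were higher for 2 of 10 and lower for 8, with a median of -0.41 (-0.64 without denervated 2 to -0.13 without denervated 5). At the brightest probe sets 0 had an unadjusted p under 0.05. They ran from the T cell co-receptor Cd8a (1.24 ± 0.84) and the receptor chain Cd247 (0.77 ± 0.58) to the granule protease Gzmb (-1.08 ± 0.62). Gzmb differed by -1.89 ± 0.52 at another probe set, which the count leaves out. At the floor were 2 denervated glands and 1 control gland for Cd8a, and 3 control glands for Cd247. The scores of T and natural killer cell genes were -0.69 to 0.30 in denervated and -0.55 to 0.35 in control glands, highest in denervated 1, contralateral 1 and the sham gland. Of 8 granulocyte and mast cell genes 3 were higher, close to the share of all genes, and the median was -0.22 (-0.53 without denervated 5 to -0.020 without the unoperated gland). The stem cell factor receptor Kit, which alone had an unadjusted p under 0.05, differed by 1.65 ± 0.53 (SE; limma adjusted p = 0.435), the mast cell protease Cpa3 by 1.55 ± 0.86 and the chemokine receptor Cxcr2 by -1.17 ± 0.63. At the floor were 1 denervated gland and 2 control glands for Cpa3, and 2 denervated glands for Cxcr2. Of the B and plasma cell markers Sdc1 alone was tested, at 0.70 ± 0.46 (0.42 without denervated 5), with 0.21 ± 0.33 at another probe set. With no filter on brightness the median of this list turned to -0.23.

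Of 9 acinar genes of the lacrimal gland 4 were higher in denervated glands, the same share as over all genes, and 5 were lower. Their median was -0.53 (-0.66 without denervated 3 to -0.35 without denervated 2, and -0.12 without both denervated 2 and 5), and 3 had an unadjusted p under 0.05. Cst3, a secreted protease inhibitor that macrophages also make, was higher by 1.26 ± 0.35 and Scgb1c1 by 1.67 ± 0.69, and Klk1, the tissue kallikrein, differed by -2.12 ± 0.48 with 4 denervated glands under the floor (SE; limma adjusted p = 0.434, 0.459 and 0.434). Scores were -1.01 to -0.18 in denervated and -0.42 to 0.47 in control glands and overlapped. The lower scores include wide differences at Scgb2a1 (-2.50 ± 2.55) and Dnase1 (-2.07 ± 1.72), whose values split the glands as given above. Without denervated 1, Cst3 (1.54 ± 0.30, limma adjusted p = 0.0369) and Klk1 (-2.37 ± 0.49, limma adjusted p = 0.0455) passed. Neither passed with contralateral 1 and sham left out as well.

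Red blood cell genes had a median of 0.56 over 4 genes, from Hbb (0.84 ± 0.67) and Hbb-b1 (0.67 ± 0.62) to Slc4a1 (-0.17 ± 0.38). The median was 0.17 without denervated 2 and turned to -0.31 without denervated 2 and 5.

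**Figure D3:**
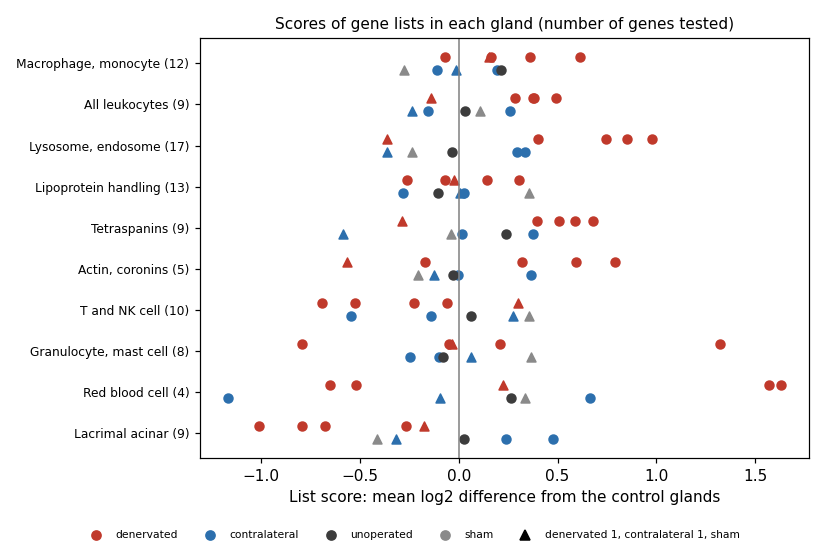
Score in each gland of the gene lists with more than 1 tested gene (number of genes in brackets), with 1 point per gland. The score is the mean log2 difference of a list's genes from the control glands (horizontal axis). Denervated glands are drawn above control glands. Denervated 2 to 5 lie above all controls for lysosomal genes (0.40 to 0.98), tetraspanins (0.40 to 0.68) and genes shared by all leukocytes (0.28 to 0.49). The highest control scores were 0.34, 0.37 and 0.26 in that order, so margins were small. The tetraspanin list shares Cd63 with the lysosomal list and Cd37 with the leukocyte list. Denervated 1 lies below the highest control in each of these lists. Denervated 2 and 5 stand apart for red blood cell genes (1.57 and 1.63).

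The genes whose log2 intensity followed each member most closely over the 10 glands were found among 3616 genes by Pearson's r, as a description. Each member was read at its brightest probe set. The points share arrays and the groups the members were picked on, so r is also given after the mean of each group was subtracted. Apoe was followed by Anxa2 (0.971, and 0.952 after subtraction) and Anxa1 (0.962 and 0.928), annexins that bind membranes, and by the complement protease C1r (0.970 and 0.939). There were 44 genes with an r above 0.90 to Apoe, against 19 for Cyba, 6 for Coro1a, 5 for Cd53 and 2 for Aif1. Anxa1 had 2912.3, 28641.9, 11010.5, 22578.7 and 47907.3 in denervated glands 1 to 5, against 1874.8, 5430.9 and 5665.1 in contralateral glands, 5604.2 in the unoperated gland and 3017.7 in the sham gland, so denervated 1 was again low.

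Cyba was followed by the cathepsin inhibitor Cstb (0.969 and 0.955), Gm2a (0.963 and 0.936) and the chemokine Pf4 (0.954 and 0.928), known from platelets. Cd53 was followed by the membrane linker Ezr (0.941 and 0.897), the alarmin Il33 (0.921 and 0.869) and the helicase Ddx3x (0.914 and 0.932). Coro1a was followed by Hnrnpf (0.944 and 0.867), the immunoproteasome subunit Psmb8 (0.938 and 0.852) and the clathrin light chain Clta (0.926 and 0.845), whose other probe set differed between groups in the opposite direction. The brightest Aif1 probe set was followed by Pafah1b3 (0.948 and 0.903), Champ1 (0.946 and 0.949) and Ap1s3 (0.882 and 0.955). Among the members themselves, Apoe and Cyba had an r of 0.954 and Cd53 and Coro1a of 0.917. The brightest Aif1 probe set, U17919_s_at, had 0.433 to 0.602 with the other 4. This holds for that probe set only, and U10894_s_at was not correlated with the other members. The log2 difference of U17919_s_at minus U10894_s_at ran from -1.02 in the unoperated gland to 2.21 in the sham gland.

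**Figure D4:**
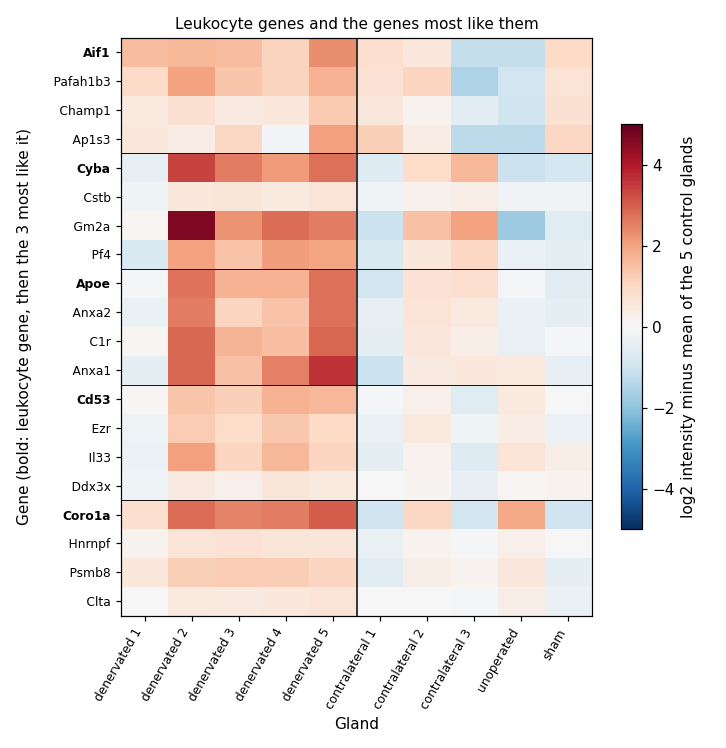
Log2 intensity minus the mean of the 5 control glands (colour) for the brightest probe set of each leukocyte gene, in bold, and the 3 genes most like it, with glands as columns and denervated glands left of the line. Apoe and Cyba with their most alike genes are high in denervated 2 to 5 and near control levels in denervated 1, while Aif1 in denervated 1 is above the control mean too.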

How the data were processed

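The deposited values are linear intensities, 1 per probe set and array, scaled by the authors to a common trimmed mean as the values show. The sources used here name neither the array software nor detection calls. Gene symbols came from the platform annotation (7006 probe sets with 1 symbol, 308 with several, 1426 with none), updated by gene ID through RefSeq's GRCr8 gene table. The 59 array controls were left out. Intensities were floored at the 20th percentile of all values and taken to log2, and the 6118 of 8740 probe sets with a mean above the 30th percentile were tested with limma 3.58.1 in R 4.3.3 (lmFit, eBayes with a variance trend, two-sided, Benjamini-Hochberg over all of them, threshold 0.05). The fit of denervated against control glands had 2 classes, and the fit for contralateral glands 3. The numbers of glands limit the precision: the median SE of a log2 difference was 0.50. The steps were tested on simulated data. The named genes are the members, the 3 genes most correlated with each, and per list the 2 highest, the lowest and any that passed. A few were added after their values were seen, as stated there. The members, lists and tests were chosen with earlier results of these data known. Alternatives were other scalings, other floors, other filters, a fit with no variance trend, weighted arrays, a replicate block and leaving glands out. The glands' shared numbers were not taken as pairs. Deviations from group means correlated at 0.488, 0.0369 and 0.164 in same-numbered glands, and contralateral 2 correlated best with denervated 3 (0.178). So few values cannot decide whether same-numbered glands were pairs. Figures were drawn with matplotlib 3.10.9.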

Additional observations from a re-analysis of the deposited data

Results flagged for a closer look

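Of 16 sets of 5 glands examined, 8 probe sets in denervated and in control glands, 2 held a gland far from the others, and chance flags about 1 set in 20. For Coro1a the gap below the other denervated glands took 0.763 of the range of that group, the low gland being denervated 1 (541.9, against 1747.6 to 2512.4 in denervated 2 to 5). For Aif1 at U10894_s_at the gap above the other control glands took 0.721 of the range, the high gland being the unoperated one (316.4), with 3 of the other controls at the floor, which shortens the range.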

How the results depend on the processing

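In each of 21 alternatives 7 of the 8 probe sets were higher in denervated than in all control glands. The choice of genes used these values, so nothing is read from that count. In each alternative 0 passed between contralateral and the unoperated and sham glands. Leaving out each gland, the probe sets called over the whole table numbered 0 to 70 and the list genes called 0 to 3. Both were above 0 only without denervated 1. With contralateral 1 and sham left out as well as denervated 1, 0 probe sets and 0 list genes were called. Without denervated 1, or without it and contralateral 1 and sham, 7 probe sets of the members had no overlap instead of 2. The share over all probe sets tested rose as well, from 0.637% to 3.79% and 6.42% in these settings. With a floor at the 30th percentile Aif1 at U10894_s_at differed by 1.57 instead of 2.18. The glands' numbers as a replicate block changed no call, with 0 probe sets called, and not every gland correlated best with its own number. Under it the contralateral minus unoperated and sham difference turned to 0.41 for Cd53 and 0.035 for Coro1a. Leaving out each gland, that difference was -2.17 to 0.70 for Coro1a, -0.94 to 1.27 for Aif1 at U17919_s_at and -0.92 to 0.095 at U10894_s_at. The cause of these turns was not tested. Median scaling moved the median difference of all probe sets to 0.04 from -0.08 in denervated against control glands, and to 0.18 from -0.15 in contralateral against unoperated and sham glands. The 7 higher members then differed by 1.32 to 2.37. Dim probe sets near the floor limit what can be said of Aif1 and Coro1a.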
